A study of Mus musculus with 30 samples.

Results

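The replication-dependent histone genes supply the histones that package newly copied DNA. The 70 genes described here are those on mouse chromosomes 3, 6, 11 and 13 whose older RefSeq name starts with Hist1h, Hist2h, Hist3h or Hist4h, in the RefSeq table of GRCm38.p6 (mm10). Of these, 67 are among the 21887 protein-coding genes of the table, and 3 are listed as pseudogenes (H2bu1-ps, H2ac14 and H2af-ps2). Hist1 on chromosome 13 held 56, Hist2 on chromosome 3 held 10, Hist3 on chromosome 11 held 3 and Hist4 on chromosome 6 held 1. By the histone they encode, 6 were linker histone H1 genes, 20 H2A, 19 H2B, 12 H3 and 13 H4. H1f10, on chromosome 6, has no older name of this kind and was not a member. The members were chosen by name and not by any measured value.

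Replication-dependent histone genes are transcribed mainly in S phase, from short units without introns whose mRNAs end in a stem-loop in place of a poly(A) tail. Their clusters gather in nuclear bodies, where the coactivator NPAT and the stem-loop processing factors act. The marks measured here lie on histone H3, the product of one of these families: acetylated lysine 27 and lysine 18 (H3K27ac and H3K18ac) are known products of the acetyltransferases CBP and p300 at active promoters and enhancers, and acetylated lysine 56 (H3K56ac) lies in the core of the nucleosome. Crebbp encodes CBP.

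Chromatin immunoprecipitation with sequencing gave 15 peak lists from C57BL/6 mice, 1 per library. Crebbp-null lymphoproliferative disease (LPD) was taken as bulk splenocytes from Crebbp-/- animals (CBPfl/fl:Mx-Cre+), with 2 lists for each of the 3 marks. It was set against wild-type splenic B cells sorted by B220 (CBPfl/fl:Mx-Cre-), also with 2 lists per mark, and these cells carry floxed Crebbp alleles too, without Cre. Lin- IL7ra+ lymphoid progenitors were sorted from bone marrow, with 1 H3K27ac list from Crebbp-null and 1 from wild-type mice of the same genotypes. CBP itself was mapped in wild-type B cells, with 1 list. The labels used here give no ages. The Mx promoter that drives Cre responds to interferon and is not restricted to lymphoid cells. Genotype, disease and sorting all differ between LPD and B cells, and their effects cannot be told apart. Whether the lists of a group come from different animals is not stated in the labels, so the spread between them may be technical.

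The LPD lists held 31924 and 27581 peaks for H3K27ac, against 30523 and 30198 in B cells. For H3K18ac they held 39529 and 35247 peaks in LPD, against 22485 and 23456 in B cells, and for H3K56ac 28222 and 28934 in LPD, against 20392 and 18763 in B cells. LPD list 2 was the shorter for H3K27ac (18.2 Mb, against 26.2 Mb in LPD list 1) and for H3K18ac (21.4 Mb, against 29.5 Mb in LPD list 1). The progenitor lists held 13125 peaks (null) and 17124 peaks (wild type), and the CBP list held 1000. The lists give no read depth, so a gene without a peak had none called and need not lack the mark. All 8 B cell marker genes examined carried H3K27ac in both LPD and both B cell lists. Of 6 T and NK marker genes only Cd3d did, and of 6 myeloid genes 1 had a peak, of 251 bp, in LPD list 1 alone. Of 6 erythroid genes 2 carried it in LPD (2147 and 1228 bp summed) and 1 in B cells (797 and 742 bp). The part of such cells in the results was not tested.

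Each gene was read over its RefSeq span and 1 kb on either side. The spans ran from 360 to 37455 bp with a median of 491 bp, and 56 of the 70 windows overlapped another member's window, so the members stood for 37 separate stretches of 200234 bp in all. The members are therefore not independent of each other. Near-identical gene copies also share sequence, and how the authors treated reads matching several places is not given in the sources used here.

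The promoters of 62 members were in the RefSeq promoter table. Shown here are the 250 bases before the transcription start, on the gene's own strand, of 4 genes with peaks gained in LPD (H2ac12, H2ac10, H3c8 and H3c15), of H2bu2, whose peaks were lost, and of H1f2, which had the longest CBP coverage. No LPD peak of the 3 marks overlapped the stretches shown for H2ac12, H2ac10 and H3c15. At H3c8 only the H3K27ac peak of LPD list 1, ending at chr13:23535220, reached into the stretch shown. Capitals mark matches to CCAAT or TATAAA and to TTTGCAT or AAACACA on either strand, which are described after the sequences. H2ac12 lies at chr13:22035122-22035643 with this stretch at chr13:22035644-22035893 (minus strand), H2ac10 at chr13:23533875-23534378 with chr13:23533625-23533874 (plus), H3c8 at chr13:23535418-23535909 with chr13:23535168-23535417 (plus), H3c15 at chr3:96238479-96239127 with chr3:96239128-96239377 (minus), H2bu2 at chr11:58948911-58949372 with chr11:58948661-58948910 (plus) and H1f2 at chr13:23738807-23739531 with chr13:23738557-23738806 (plus).
H2ac12: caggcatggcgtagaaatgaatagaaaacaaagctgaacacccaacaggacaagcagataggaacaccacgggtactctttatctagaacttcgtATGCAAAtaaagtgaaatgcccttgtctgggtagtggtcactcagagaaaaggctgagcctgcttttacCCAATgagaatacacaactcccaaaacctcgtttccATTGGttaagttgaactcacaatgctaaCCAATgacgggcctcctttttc
H2ac10: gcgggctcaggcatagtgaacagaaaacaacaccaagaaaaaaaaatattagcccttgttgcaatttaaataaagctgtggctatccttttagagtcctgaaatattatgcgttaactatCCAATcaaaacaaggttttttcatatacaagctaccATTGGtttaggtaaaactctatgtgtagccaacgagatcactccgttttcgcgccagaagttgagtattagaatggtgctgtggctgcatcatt
H3c8: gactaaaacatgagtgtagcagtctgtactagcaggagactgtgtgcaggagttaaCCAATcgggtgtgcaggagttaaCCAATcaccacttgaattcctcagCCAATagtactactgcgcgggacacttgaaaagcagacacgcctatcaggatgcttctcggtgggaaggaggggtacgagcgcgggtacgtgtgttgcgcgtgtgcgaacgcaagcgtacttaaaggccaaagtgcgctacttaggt
H3c15: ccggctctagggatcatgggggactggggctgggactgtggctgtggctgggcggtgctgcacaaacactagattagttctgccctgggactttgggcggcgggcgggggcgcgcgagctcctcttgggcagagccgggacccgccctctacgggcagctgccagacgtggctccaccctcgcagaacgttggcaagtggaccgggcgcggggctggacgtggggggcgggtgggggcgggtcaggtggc
H2bu2: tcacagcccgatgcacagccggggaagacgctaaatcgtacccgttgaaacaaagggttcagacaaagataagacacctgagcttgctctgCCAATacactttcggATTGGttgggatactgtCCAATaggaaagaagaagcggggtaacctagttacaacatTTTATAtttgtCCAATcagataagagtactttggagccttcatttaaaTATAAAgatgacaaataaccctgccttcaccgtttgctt
H1f2: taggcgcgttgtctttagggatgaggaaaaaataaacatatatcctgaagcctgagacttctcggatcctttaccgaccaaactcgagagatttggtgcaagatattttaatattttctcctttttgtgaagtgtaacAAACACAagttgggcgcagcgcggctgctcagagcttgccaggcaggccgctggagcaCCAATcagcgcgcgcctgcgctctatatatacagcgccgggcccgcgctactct

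CCAAT, the box bound by NF-Y, was found on either strand in 53 of 62 member windows of 300 bases (250 before the start and 50 after it), against 37.4% of all 32851 windows in the table. All 6 H1, 18 H2A, 16 H2B and 10 H3 windows held it, against 3 of 12 H4 windows. TATAAA, the letters of the TATA box, was in 35 of 62 member windows and 13.6% of all windows. Matches were counted at any place in the window, also after the start, so they need not be working boxes. TTTGCAT, the core of the octamer bound by OCT factors, was in 14 of 62 member windows, of which 7 were H2A, 6 H2B and 1 H4, and in 4.63% of all windows. AAACACA, a box described for H1 promoters, was in 5 of 6 H1 windows and 7.18% of all. GGTCCG, part of an H4 promoter element, was in 11 of 12 H4 windows and 8.25% of all. None of these 5 motifs contains another. In the sequences above, H2ac12 has a match to the octamer core and several to CCAAT, and H2bu2 has matches to CCAAT and TATAAA. The H3c15 stretch has no match in these 250 bases.

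Most histone genes carried acetylation in both tissues. H3K27ac peaks lay over 60 and 57 of 70 members in the LPD lists, against 52 and 52 in the B cell lists, or 85.7 and 81.4% of members in LPD. Over all coding genes the share was 49.6 and 46.8% in LPD and 48.2 and 47.8% in B cells. H3K18ac covered 59 and 52 members in LPD and 49 and 50 in B cells, and 51.1 and 47.5% of all coding genes in LPD and 41.9 and 42.9% in B cells. H3K56ac showed the widest gap, with 55 and 55 members in LPD against 35 and 37 in B cells. Over all coding genes H3K56ac covered 48.4 and 49.0% in LPD, against 44.8 and 42.9% in B cells. Progenitor H3K27ac covered 28 members in the null list and 31 in the wild-type list, near the shares of all coding genes (37.9% in null and 42.8% in wild type). A peak was present in all 14 acetylation lists at 22 members (31.2% of all coding genes), among them the linker histone genes H1f2, H1f3, H1f4 and H1f5 and the H3 genes H3c1, H3c3 and H3c13.

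**Figure D1:**
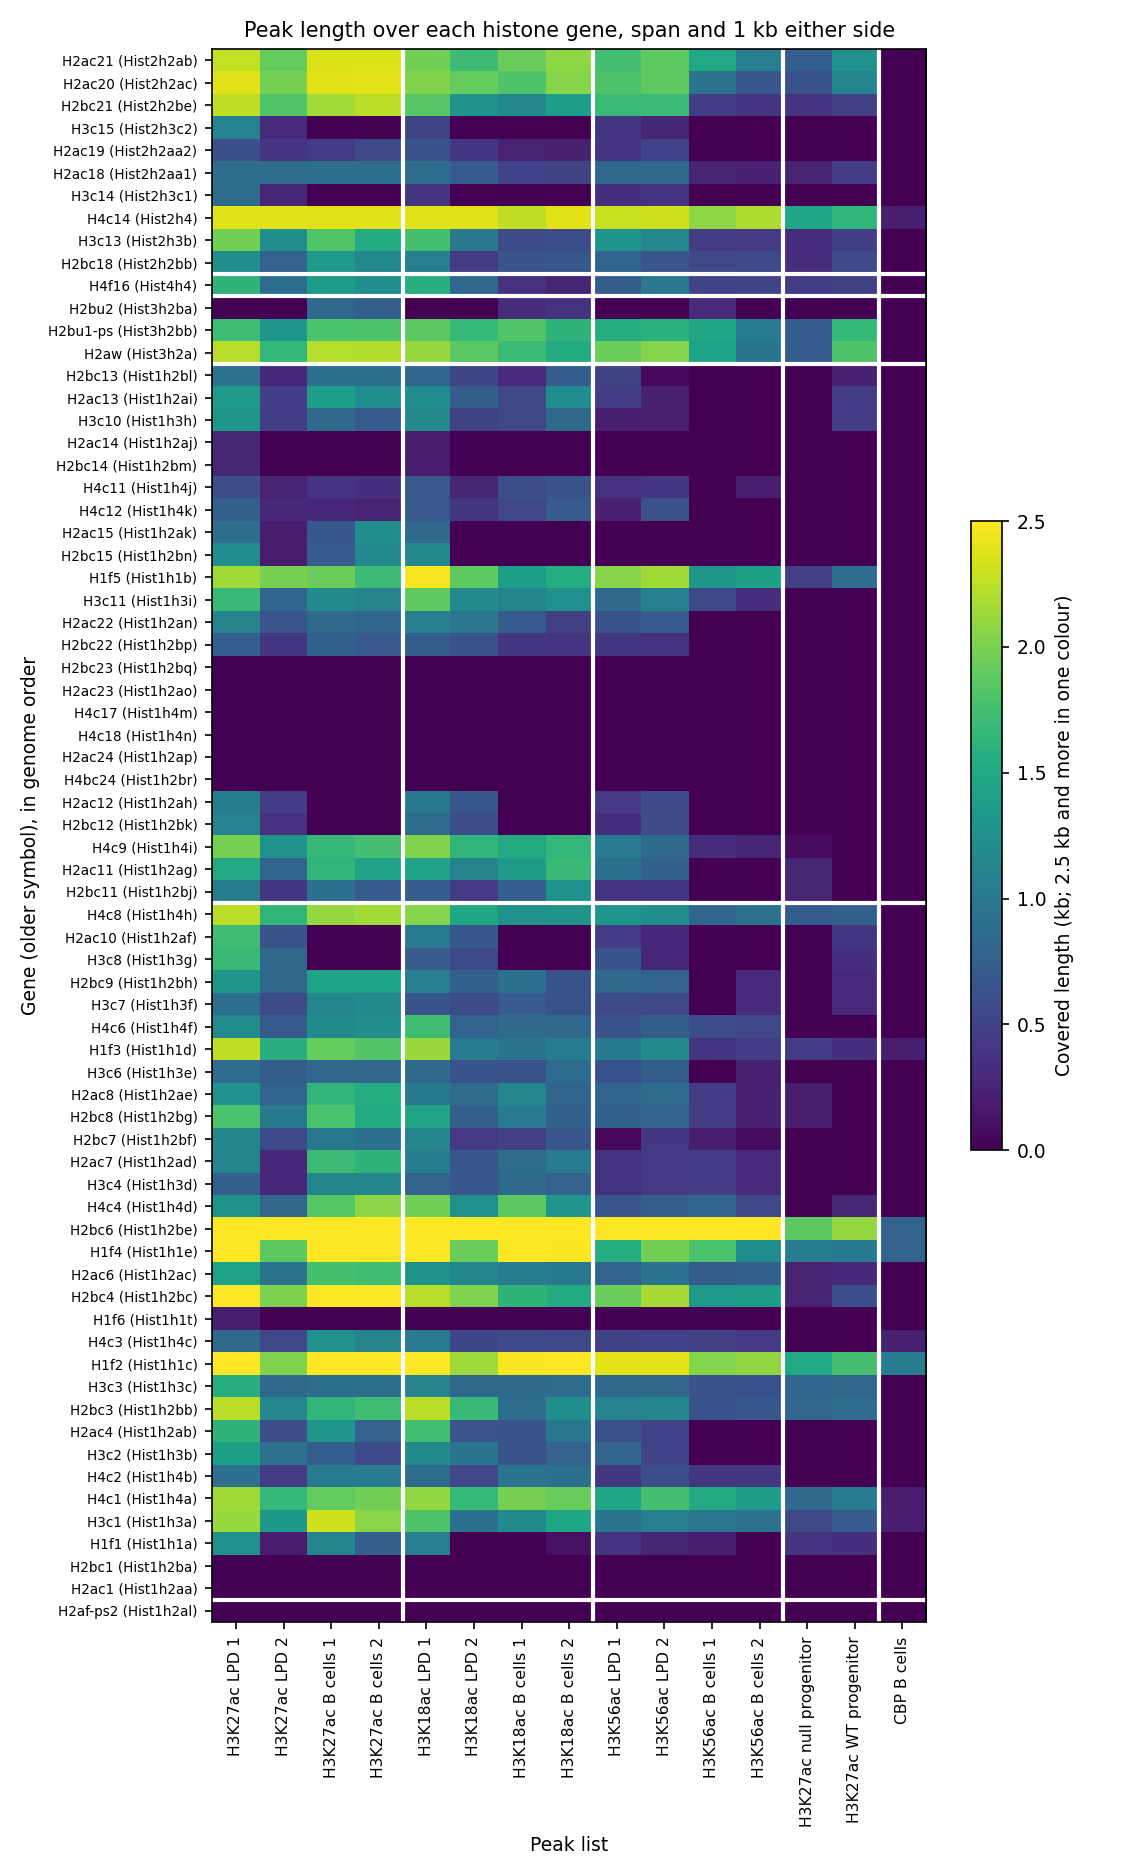
Length covered by peaks over each of the 70 histone genes, in genome order down the page, in each of the 15 peak lists (colour, kb over the span and 1 kb on either side; lengths of 2.5 kb and more share a colour). White lines separate clusters and marks. A block of genes without any peak lies in the middle of the Hist1 rows, and the H3K56ac columns are darker in B cells than in LPD.

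The longest coverage belonged to H2bc6, an H2B gene whose annotated span of 37455 bp takes in a long transcript, so that its length is not comparable with the others. After it came H1f2, the gene of a linker histone with H3K27ac over 2500 and 2021 bp in LPD and 2598 and 2586 bp in B cells. H4c14 (Hist2h4), an H4 gene of the Hist2 cluster with a window of 2384 bp, was covered by H3K27ac in full in both LPD and both B cell lists. The widest H3K27ac peak over any member in LPD list 1, 3045 bp at chr3:96261900-96264944, was the one over H4c14. Where a gene is already covered in full its length cannot grow, which limits what length shows at these genes.

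No peak of any kind lay over 9 members in the 15 lists (43.7% of all coding genes had none). H2bc1 and H2ac1 are a divergent pair that is transcribed in testis, and H2af-ps2 is a pseudogene apart from the clusters. The other 6 (H2bc23, H2ac23, H4c17, H4c18, H2ac24 and H4bc24) are neighbours at chr13:21806412-21837530. The gene named H4bc24 carries the older H2B name Hist1h2br. The 300-base promoter windows of H2bc23 and H4bc24 matched in 300 of 300 letters, and both spans were 3788 bp long, so reads from them cannot be assigned to one copy by these letters. The part of shared sequence in the missing peaks was not tested. The third testis gene, H1f6, had 1 H3K27ac peak of 213 bp in LPD list 1 and none elsewhere.

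Of the 3 marks, H3K56ac had the most members gained in LPD with the lists as deposited, where its lists were also longer as a whole. A gene was gained where a peak lay over it in LPD lists 1 and 2 but in no B cell list, and lost in the reverse case. H3K56ac was gained at 17 of 70 members (background over all coding genes 4.24%) and lost at 0 (0.978%), and 33 carried it in all 4 lists (39.8%). Covered length was longer in both LPD lists than in both B cell lists at 48 members (35.1%) and shorter at 0 (4.04%), or at 4 without B cell list 2. These are counts over positions without a test. The 17 gained genes fell in 9 separate stretches.

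The gained genes belonged to the core histone families. Among H2A genes 7 of 20 were gained, among H2B 4 of 19, among H3 5 of 12, among H4 1 of 13 and among the linker H1 genes 0 of 6. H3K56ac was already in all 4 lists at 4 of the 6 H1 and 9 of the 13 H4 genes, which could not gain it, and differences between families were not tested. The single H4 gene was H4c12, with 233 and 623 bp of H3K56ac in LPD and 0 and 0 bp in B cells. H2ac11, an H2A gene that shares a divergent promoter with H2bc11, had 927 and 766 bp in LPD and 0 and 0 bp in B cells. H2ac22, an H2A gene, had 642 and 718 bp in LPD and 0 and 0 bp in B cells. All 3 genes had a peak in each LPD list and in no B cell list.

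The H3 genes H3c2 and H3c10 also gained H3K56ac. H3c2 had 819 and 504 bp in LPD and 0 and 0 bp in B cells, and its H2A neighbour H2ac4 had 619 and 504 bp in LPD and 0 and 0 bp in B cells. H3c10 had 209 and 222 bp in LPD and 0 and 0 bp in B cells, close to the 200 bp that the narrowest peaks of the lists span. In Hist2 the H2A gene H2ac19 had 390 and 505 bp in LPD and 0 and 0 bp in B cells.

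Genes with H3K56ac in all 4 lists mostly had longer coverage in LPD, where its lists were longer as a whole. The share of longer genes among all coding genes with H3K56ac in all 4 lists was not computed. H2bc21, an H2B gene of Hist2, had 1707 and 1701 bp in LPD and 456 and 380 bp in B cells. Beside it H2ac20, an H2A gene, had 1805 and 1882 bp in LPD and 963 and 678 bp in B cells. H3c13, the H3 gene of Hist2 kept in all marks, had 1292 and 1160 bp in LPD and 436 and 429 bp in B cells. H1f5, a linker histone gene, had 2049 and 2140 bp in LPD and 1325 and 1417 bp in B cells. In each of these the LPD and B cell values did not overlap. In other genes with H3K56ac in all lists the groups overlapped. Among these H2ac7 had 367 and 424 bp in LPD and 456 and 310 bp in B cells, H4c4 668 and 759 bp in LPD and 813 and 531 bp in B cells, H4c1 1484 and 1758 bp in LPD and 1519 and 1380 bp in B cells, and H3c1 965 and 1071 bp in LPD and 979 and 933 bp in B cells.

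At most genes that gained H3K56ac the other marks were already there in B cells. At 11 of the 17 genes H3K27ac and H3K18ac were both present in all 4 lists (0.516% of all coding genes had this pattern). Of the 52 members with H3K27ac in both B cell lists, 33 also had H3K56ac in both, or 63.5%, against 86.5% of all coding genes with H3K27ac there. In LPD the same share was 96.5% of 57 members, against 97.3% of all coding genes. From H3K18ac to H3K56ac both marks were on all 52 members in LPD and on 67.3% of 49 members in B cells, and over all coding genes the share was 94.7% in LPD and 91.9% in B cells. H3K18ac went with H3K27ac at 91.2% of members in LPD and 94.2% in B cells, and over all coding genes at 95.1% in LPD and 83.3% in B cells. The B cell H3K56ac lists were the shortest of the B cell acetylation lists, at 10.6 and 9.44 Mb.

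**Figure D2:**
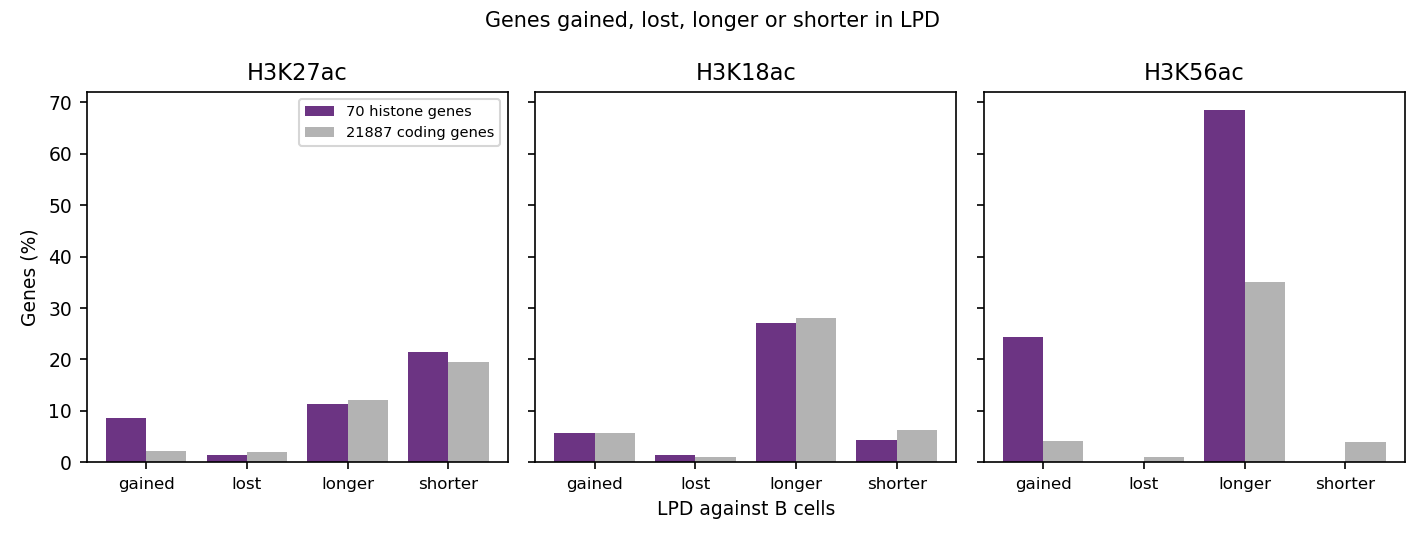
Percentage of genes called gained, lost, longer or shorter in LPD against B cells for each mark, for the 70 histone genes (left bar of each pair) and all 21887 coding genes (right bar). H3K56ac was gained at 17 and longer at 48 of the 70, with 0 lost or shorter.

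The whole H3K56ac lists were also longer in LPD, so the histone genes were set against them. The member stretches held 37370 and 39419 bp of H3K56ac in LPD and 22709 and 20755 bp in B cells, a log2 difference of 0.82 (exact two-sided permutation test, p = 0.33, the smallest that 2 against 2 lists allow). The log2 difference of whole lists was 0.82 as well. As a share of all H3K56ac length, the members took 0.219 and 0.216% in LPD and 0.215 and 0.220% in B cells. Counted by region instead of gene, 17 of 67 H3K56ac regions over members were gained (25.4%), against 23.7% of 34515 regions in all. With the 4 lists brought to one length by keeping their widest peaks, 0 members gained H3K56ac (0.777% of all coding genes), 13 lost it (12.1%), 11 were longer (13.3%), 17 were shorter (16.9%) and the log2 difference of summed length was -0.18, so the direction turned. That setting drops narrow peaks first, and the LPD lists held more peaks to drop. The H3K56ac difference at histone genes thus went with a longer list in LPD, and its part in the result was not tested beyond these values.

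H3K27ac changed at few members and in both directions. It was gained at 6 (background 2.21%) and lost at 1 (1.99%), while 51 kept it in all 4 lists (43.7%). It was longer in LPD at 8 (12.1%) and shorter at 15 (19.6%). The 6 gained genes were H2ac12, H2bc12, H2ac10 and H3c8 of Hist1 and H3c15 and H3c14 of Hist2, in 4 separate stretches. With only peaks of at least 500 bp counted, 2 members were gained and 2 were longer. With lists of equal length 18 were gained (6.68% of all coding genes), 0 lost (0.69%), 22 longer (14.3%) and 12 shorter (11.3%).

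H2ac12 and H2bc12 are an H2A and H2B pair transcribed in opposite directions from starts 178 bp apart. H2ac12 had 1064 and 455 bp of H3K27ac in LPD and 0 and 0 bp in B cells, and H2bc12 had 1111 and 357 bp in LPD and 0 and 0 bp in B cells. In LPD list 1 the peaks were at chr13:22034606-22035259 and chr13:22036234-22036905, over the far ends of the genes and beyond them, and the shared promoter between the starts had none. LPD list 2 held the first of these peaks alone, at chr13:22034723-22035177, which is outside the span of H2bc12. H3K18ac over H2ac12 covered 1014 and 677 bp in LPD and 0 and 0 bp in B cells, and H3K56ac covered 419 and 583 bp in LPD and 0 and 0 bp in B cells.

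H2ac10 and H3c8 are an H2A and an H3 gene that are neighbours on the plus strand. H3c8 had 1681 and 835 bp of H3K27ac, 713 and 566 bp of H3K18ac and 637 and 286 bp of H3K56ac in LPD, and no base of any mark in the B cell lists. H2ac10 had 1734 and 648 bp of H3K27ac, 1043 and 686 bp of H3K18ac and 437 and 286 bp of H3K56ac in LPD, and likewise 0 bp in the B cell lists of all 3 marks. The peak they share lay at chr13:23534221-23535220 in H3K27ac LPD list 1 and at chr13:23534367-23535014 in list 2. Wild-type progenitors had H3K27ac at this place too, at chr13:23534364-23534760, which was absent from the null progenitor list. H2ac12, H2bc12, H2ac10 and H3c8 were the members gained in all 3 marks (1.28% of all coding genes), in 2 separate stretches. All H3K18ac and H3K56ac peaks counted for H3c8 lay outside its span, as did its H3K27ac peaks in LPD list 2. The H3K56ac peaks counted for H2ac10 also lay outside its span in both LPD lists. Its H3K27ac peak in LPD list 2 reached only the end of that span, which is at chr13:23534378.

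H3c15 and H3c14 are Hist2 H3 genes, and they differed in their marks from the neighbour H3c13. H3c15 had 1109 and 294 bp of H3K27ac in LPD and 0 and 0 bp in B cells, and H3c14 had 881 and 265 bp in LPD and 0 and 0 bp in B cells. Their H3K56ac was called gained as well, with 409 and 254 bp in the H3c15 window in LPD and 0 and 0 bp in B cells. The H3c14 window had 341 and 365 bp in LPD and 0 and 0 bp in B cells. The H3K56ac peaks of H3c15, at chr3:96237532-96237940 in list 1 and chr3:96238065-96238318 in list 2, did not overlap each other and lay outside its span. Its H3K27ac peak in LPD list 2, at chr3:96237602-96237895, lay outside the span as well. That of H3c14 in LPD list 2, at chr3:96247336-96247600, reached only the end of the H3c14 span. H3K18ac was present in the windows of H3c15 and H3c14 in LPD list 1 alone. H3c13 carried all 3 marks in all 4 lists, with 1967 and 1229 bp of H3K27ac in LPD and 1821 and 1528 bp in B cells. H3 coding sequences are much alike, and reads may be split between copies such as these.

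H2bu2 (Hist3h2ba) is the H2B gene of Hist3 and the only member that lost marks with the lists as deposited. It had 0 and 0 bp of H3K27ac in LPD and 846 and 756 bp in B cells, from peaks at chr11:58948242-58949087 and chr11:58948279-58949034 that cover the promoter sequence shown above. H3K18ac covered 0 and 0 bp in LPD and 324 and 362 bp in B cells. H3K56ac covered 0 and 0 bp in LPD and 300 and 0 bp in B cells, so that single list did not make a call. The other members of Hist3 kept H3K27ac: H2aw, an H2A gene, had 2228 and 1653 bp in LPD and 2219 and 2214 bp in B cells, and the pseudogene H2bu1-ps had 1719 and 1314 bp in LPD and 1794 and 1804 bp in B cells. Loss thus stood at 1 of 3 Hist3 genes.

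Among members with H3K27ac in all 4 lists, genes of every family had shorter coverage in LPD (1 H1, 5 H2A, 2 H3 and 3 H4 genes, and H2B genes such as H2bc4). With H2bu2 counted, 15 of 70 members were shorter (21.4%), near the share of all coding genes (19.6%). H2ac7 had 1125 and 287 bp in LPD and 1713 and 1626 bp in B cells. H4c4 had 1277 and 826 bp in LPD and 1844 and 2067 bp in B cells. H3c4 had 758 and 287 bp in LPD and 1144 and 1152 bp in B cells. H2bc4 had 2651 and 2002 bp in LPD and 3127 and 3292 bp in B cells. In these genes both LPD lists lay below both B cell lists. LPD list 2 was short as a whole. Without LPD list 1, 48 members were shorter in LPD, and without LPD list 2, 35 were longer.

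Gains and longer coverage of H3K18ac at histone genes were near the shares of other genes. It was gained at 4 members (5.77%), lost at 1 (1.01%) and kept at 48 (38.2%). Length was longer in LPD at 19 (28.0%) and shorter at 3 (6.27%). The gained genes were H2ac12, H2bc12, H2ac10 and H3c8, and the lost one H2bu2. H4f16, the single gene of Hist4 and an H4 gene, had 1576 and 840 bp in LPD and 358 and 257 bp in B cells, and H3c13 had 1764 and 1003 bp in LPD and 573 and 593 bp in B cells. H2bc3, an H2B gene, had 2237 and 1697 bp in LPD and 886 and 1247 bp in B cells. The other way round, H2bc11 had 719 and 422 bp in LPD and 746 and 1271 bp in B cells, and H4c2, an H4 gene, had 881 and 532 bp in LPD and 972 and 921 bp in B cells. Without LPD list 2 the gained members were 10 and the longer ones 46. Without LPD list 1 the shorter ones were 22.

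Summed over the member stretches, H3K27ac covered 66654 and 39939 bp in LPD and 56446 and 54741 bp in B cells, a log2 difference of -0.11 (exact two-sided permutation test, p = 1), where whole lists differed by -0.29. Divided by the length of each list the log2 difference was 0.19, and without LPD list 2 it was 0.26, so the direction turned. H3K18ac covered 61929 and 40226 bp in LPD and 38515 and 39953 bp in B cells, a log2 difference of 0.35 (exact two-sided permutation test, p = 0.33), where whole lists differed by 0.88. Divided by list length it was -0.53: the members took 0.199 ± 0.0158% of H3K18ac length in LPD and 0.287 ± 0.00268% in B cells (SD, n = 2 each). The members' share of H3K18ac was thus lower in both LPD lists than in both B cell lists. With lists of equal length 0 members gained H3K18ac (0.864%), 14 lost it (13.6%), 3 were longer (8.06%) and 24 shorter (21.5%).

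**Figure D3:**
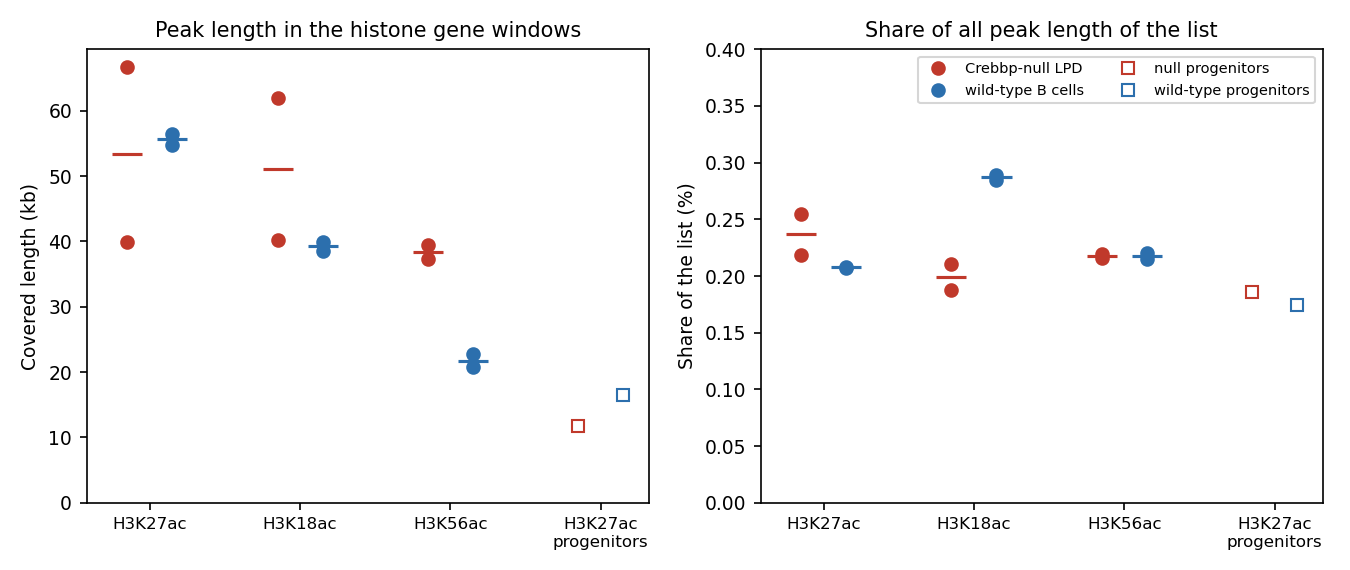
Peak length in the histone gene windows in kb (left panel) and as a percentage of all peak length in the list (right panel), 1 point per list and a bar at the mean of 2 lists. LPD is left of B cells and null progenitors left of wild type. H3K56ac length is higher in LPD in kb, and its share of the list is 0.219 and 0.216% in LPD and 0.215 and 0.220% in B cells.

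Where the peaks lay around the start differed for H3K27ac. The first transcribed base was covered by H3K27ac in 20 and 10 of 62 members in LPD, against 34 and 31 in B cells. Over 17492 coding genes with a known start the share was 31.2 and 21.2% in LPD and 31.0 and 30.0% in B cells. At 14 members both B cell lists and neither LPD list covered the first base (background 2.61%), and at 0 the reverse held (0.886%). The first count was 2 for H3K18ac (0.955%) and 0 for H3K56ac (0.583%), and the reverse was 0 for H3K18ac (2.73%) and 0 for H3K56ac (3.82%). This comparison was chosen after the profile around the start had been seen. With lists of one length the count for H3K27ac was 3, and with peaks of at least 500 bp it was 8, whereas leaving out 1 list at a time gave 14 to 21. The share of all coding genes was not computed under these settings.

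Of the 14 genes, 12 were H2A or H2B genes (12 of 34 with a known start), 1 an H3 gene, H3c4, and 1 an H4 gene, H4c3. Of 20 members in divergent pairs of starts 164 to 281 bp apart, 9 were among them. H2ac8 and H2bc8, with starts 180 bp apart at chr13:23571220 and chr13:23571400, show the layout. B cell list 1 had an H3K27ac peak at chr13:23570954-23571583 across both starts, and list 2 covered them with peaks at chr13:23570956-23571257 and chr13:23571352-23571566. LPD list 1 had chr13:23570956-23571208, which stops short of both starts, and LPD list 2 had none between chr13:23570320-23570779 and chr13:23571823-23572178. Over its whole window H2ac8 had 1263 and 816 bp in LPD and 1642 and 1549 bp in B cells, while its H3K56ac covered 808 and 880 bp in LPD and 443 and 229 bp in B cells. H3K27ac at H2ac8 was thus shorter in LPD and H3K56ac longer, and the H3K56ac peaks of LPD lay at the far ends of the genes, at chr13:23570369-23570805 and chr13:23571774-23572144 in list 1.

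At 550 bp after the start the order was different. There H3K27ac covered 72.6 and 51.6% of the 62 members in LPD and 51.6 and 53.2% in B cells. H3K56ac covered 51.6 and 51.6% in LPD and 30.6 and 32.3% in B cells, and over all coding genes 27.1 and 28.8% in LPD and 19.5 and 17.8% in B cells. At 300 bp before the start H3K27ac covered 48.4 and 32.3% in LPD and 66.1 and 54.8% in B cells. At these 2 places the H3K27ac shares of LPD and B cells overlapped after the start and did not before it, which holds for these distances and not for each distance in the profile. In windows of equal size, 1 kb on either side of the start, H3K56ac was gained at 16 of 62 members (background 3.44%) and longer at 41 (30.6%). H3K27ac was gained there at 5 (1.51%) and shorter at 20 (16.4%).

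**Figure D4:**
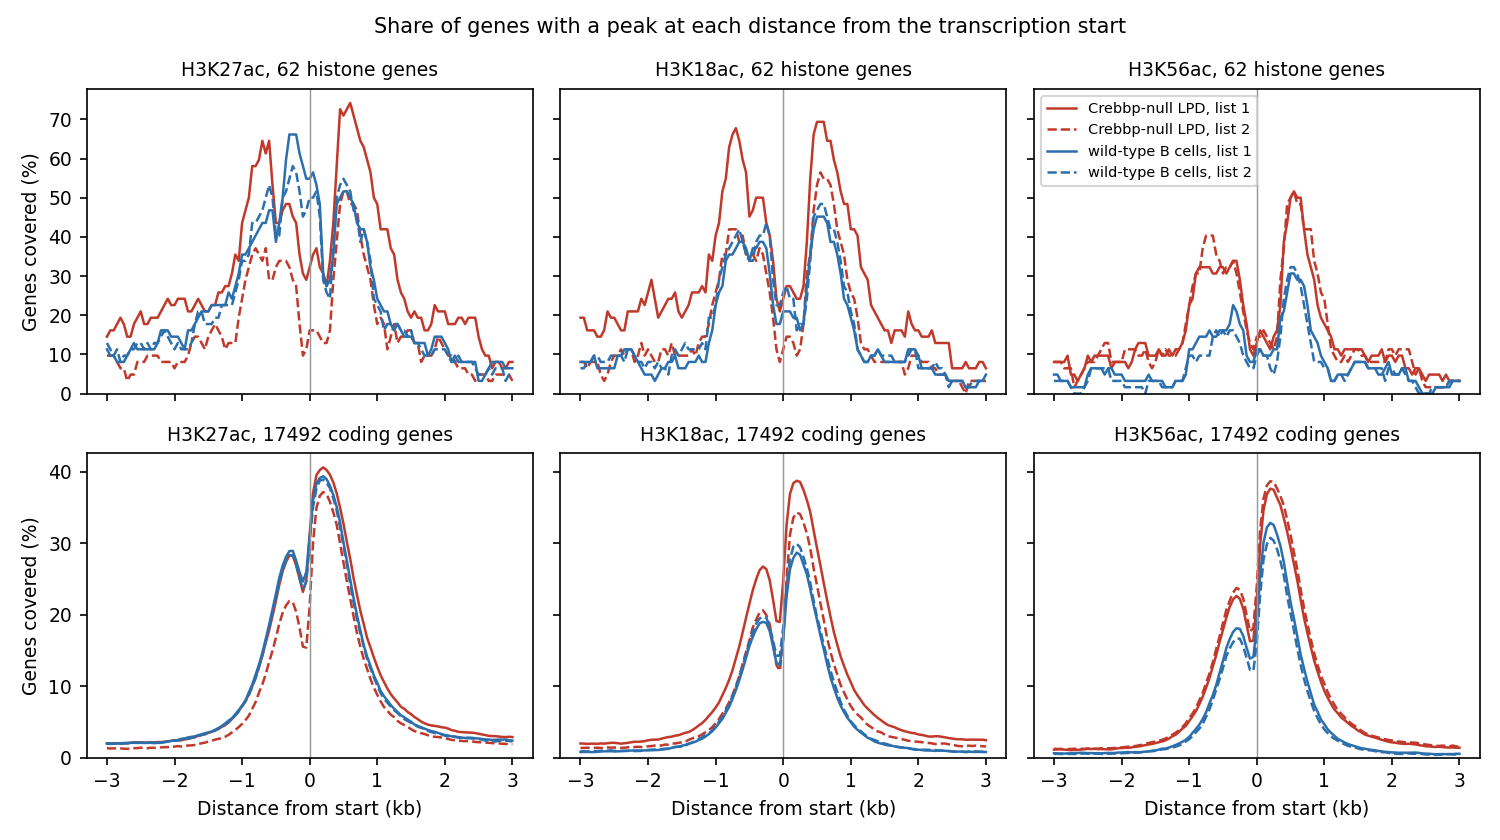
Percentage of genes with a peak at each distance from the transcription start (kb, negative before the start), 1 line per list, for 62 histone genes (upper row) and 17492 coding genes (lower row, on its own scale). H3K27ac at the start of histone genes is higher in the B cell lists, with 20 and 10 genes covered in LPD and 34 and 31 in B cells, and H3K56ac after the start is higher in the LPD lists.

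In progenitors the H3K27ac lists shared 23 members, with 5 in the null list alone (0.58% of all coding genes) and 8 in the wild-type list alone (5.41%). The 5 were H4c9 (80 bp), H2ac11 and H2bc11 (268 bp in each window) and H2ac8 and H2bc8 (209 bp in each window). H2ac8 and H2bc8 share 1 peak, and the windows of H4c9, H2ac11 and H2bc11 overlap, so these are not 5 separate differences. The peak of 209 bp, at chr13:23571911-23572119, lay outside the spans of both H2ac8 and H2bc8. The 8 were H2bc13, H2ac13, H3c10, H2ac10, H3c8, H2bc9, H3c7 and H4c4, with 453 bp over H2ac13 in the wild-type list. Length was longer in the null list at 8 members (5.26%) and shorter at 28 (38.0%). H1f2 had 1494 bp in null and 1758 bp in wild-type progenitors, and H1f5 had 476 bp in null and 897 bp in wild-type progenitors. Summed, the members had 11750 bp in null and 16456 bp in wild-type progenitors, a log2 ratio of -0.49, against -0.58 for the whole lists, and 0.09 after division by list length, so the direction turned. With 1 library per genotype there is no replicate check.

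CBP peaks in wild-type B cells lay over 8 of 70 members, or 11.4% (background 3.09%). They were the linker histone genes H1f2 (1056 bp), H1f4 (782 bp) and H1f3 (210 bp), the H4 genes H4c3 (216 bp), H4c14 (213 bp) and H4c1 (203 bp), the H3 gene H3c1 (203 bp) and the H2B gene H2bc6 (787 bp), whose window overlaps that of H1f4. Over H1f2 the CBP peaks were at chr13:23738644-23738972, which takes in most of the promoter shown above, and chr13:23739328-23740054. The members took 0.968% of the CBP list's length. The windows of H4c1 and H3c1 overlap as well, and 2 CBP peaks lay over several members. All 8 kept H3K27ac, H3K18ac and H3K56ac in both LPD and both B cell lists, as did 33 of the 70 members in all. The share among all coding genes with a CBP peak was not computed. H1f4 had 2509 and 1871 bp of H3K27ac in LPD and 2507 and 2639 bp in B cells.

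Of the 10 other coding genes inside the clusters, 0 gained a mark, and H3K27ac was lost at 3, H3K18ac at 2 and H3K56ac at 1 (1.99, 1.01 and 0.978% of all coding genes). Slc17a4, a solute carrier gene, had 0 and 0 bp of H3K27ac in LPD and 5189 and 4614 bp in B cells. Zfp184, a zinc finger gene, had 0 and 0 bp in LPD and 799 and 784 bp in B cells. Hfe, a regulator of iron uptake, kept it with 726 and 384 bp in LPD and 668 and 434 bp in B cells.

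Of 23 genes that serve histone mRNA synthesis and processing, all 23 kept H3K27ac (43.7% of all coding genes). H3K18ac was gained at 2 (5.77%), Lsm11, part of the U7 particle that cuts histone mRNA, and Coil, the gene of coilin. H3K56ac was longer in LPD at 15 of 23 (35.1% of all coding genes) and shorter at 1 (4.04%). Of 11 replication-independent histone genes, 1 gained H3K18ac (5.77% of all coding genes) and 1 gained H3K56ac (4.24%). H2ax had 1441 and 769 bp of H3K18ac in LPD and 0 and 0 bp in B cells. H2aj had 1085 and 1079 bp of H3K56ac in LPD and 0 and 0 bp in B cells. Genes of cell division also gained marks. Of 12 listed, H3K27ac was gained at 3 (Ccnb2, Cdk1 and Aurkb), H3K18ac at 5 and H3K56ac at 5 (2.21, 5.77 and 4.24% of all coding genes). Mki67, a marker of cycling cells, had 3231 and 2549 bp of H3K56ac in LPD and 0 and 0 bp in B cells. In bulk tissue, more cycling cells and more of the mark per cell cannot be told apart, and their part in the histone gene result was not tested.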

How the data were processed

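Of 30 samples, 15 with peak lists were analysed, and the 14 RNA-seq samples and the input were not analysed here. The submitters' processing notes name mm10 and the tools Bowtie2 2.1.0, MACS2 2.0.10, Picard and bedtools, without settings. The lists deposited by the authors, 1 per library, hold positions only, and give neither a score nor a depth.

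The member genes, comparison lists and rules were chosen with earlier results of these data known. From the lists onward, values were computed with pandas 2.3.3 and NumPy 2.4.6 in Python 3.11.15, and drawn with Matplotlib 3.10.9. A gene had a peak when at least 1 bp overlapped its span widened by 1 kb. Calls compare 2 LPD lists with 2 B cell lists, as defined in the results, and shares over all coding genes stand beside them. Summed lengths were compared on the log2 scale by an exact two-sided permutation test. Of 79 comparison-list genes, 78 matched. The calls of gained and lost genes were tested on simulated lists with planted gains and losses.

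Genes were named by rule: the gained, lost, longest and shortest members per mark, those without peaks, with CBP peaks or with the longest coverage, and the Hist2 H3, Hist3, Hist4 and testis genes. Other named genes, among them H3c3, H3c10, Slc17a4, Zfp184, Hfe, Mki67, Ccnb2, Cdk1 and Aurkb, were chosen after their values were seen. Alternatives were span alone, a 200 bp overlap, peaks of at least 500 bp, lists of equal length, length scaled to the list, leaving out each list and a replicate block. Windows around the start and counts of covered starts were added after seeing the data. A comparison of protein sequences was not made. Promoter sequences are from RefSeq, GRCm38.p6.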

Additional observations from a re-analysis of the deposited data

Results flagged for a closer look

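At 4 members the H3K27ac difference of LPD from B cells ran opposite to that of null from wild-type progenitors, in every list. The difference between the 2 contrasts was not tested, since progenitors have 1 list per genotype. The share of all coding genes that ran opposite in this way was not computed. Of all coding genes, 38.0% were shorter and 5.26% longer in null than in wild-type progenitors. H2ac10 had 1734 and 648 bp in LPD and 0 and 0 bp in B cells, a mean difference of 1191 bp, and 0 bp in null against 397 bp in wild-type progenitors. H3c8 had 1681 and 835 bp in LPD and 0 and 0 bp in B cells, a mean difference of 1258 bp, and 0 bp in null against 343 bp in wild-type progenitors. H1f5 had 2147 and 1985 bp in LPD and 1932 and 1711 bp in B cells, a mean difference of 244.5 bp, and 476 bp in null against 897 bp in wild-type progenitors. H2ac8 had 1263 and 816 bp in LPD and 1642 and 1549 bp in B cells, a mean difference of -556 bp, and 209 bp in null against 0 bp in wild-type progenitors. H2ac10 and H3c8 share 1 peak, and the null peak counted for H2ac8 lay in its flank, outside its span.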

How the results depend on the processing

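Under alternatives, 136 of 185 counts of members stayed within 1.5 times and 49 did not, and 8 of 39 log2 ratios of summed length reversed. Of 225 length differences of single gained or lost genes, 168 moved by no more than the SD of 2 lists and 57 by more. All 25 moved with the span alone. A reversal was seen at 0, but none could occur, since 1 group has 0 bp by the call and no alternative adds peaks. With lists of equal length, H3K27ac was gained at 18, lost at 0 and longer at 22 members, with a log2 ratio of 0.41 and 3 starts covered in B cells only; H3K18ac at 0, 14 and 3, with -0.48; H3K56ac at 0, 13 and 11, with -0.18; wild-type progenitors covered 14 members, with a log2 ratio of 0.31. Backgrounds for gained were then 6.68, 0.864 and 0.777%. Scaled to the list, the log2 ratio was 0.19 for H3K27ac, -0.53 for H3K18ac and 0.09 in progenitors. With peaks of at least 500 bp, H3K27ac was gained at 2 and longer at 2, with 8 starts; H3K18ac was lost at 0, with 1 start; H3K56ac was longer at 26; progenitors covered 9 (null) and 14 (wild type) members, with a log2 ratio of -1.09; and CBP lay over 3. With the span alone, H3K27ac was lost at 2, H3K18ac was lost at 0 and longer at 12, H3K56ac was gained at 8 and longer at 27, and null progenitors covered 17 with a log2 ratio of -0.48, which it also was around the start. The cause was not tested, beyond equal length dropping narrow peaks.

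Leaving out each list gave, for H3K27ac, 8 to 35 longer, a log2 ratio of -0.48 to 0.26 and 14 to 21 starts; for H3K18ac, 4 to 10 gained, 19 to 46 longer, 0.04 to 0.66 and 2 to 6 starts; for H3K56ac, 17 to 21 gained, 0 to 1 lost, 48 to 54 longer, 0.76 to 0.89 and 0 to 1 starts. Shorter members were 15 to 48 for H3K27ac, 3 to 22 for H3K18ac and 0 to 4 for H3K56ac, and with the span alone 22, 6 and 1. The lists give no depth, so a missing peak may be one not called.

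Same-numbered lists did not deviate together (correlations of -0.0055, 0.0071 and -0.0063 over genes). These values show no pairing in covered length, but they cannot exclude that the numbers pair samples, which the labels do not state. With a replicate block, gained and lost counts were 6 and 1 for H3K27ac, 4 and 1 for H3K18ac and 17 and 0 for H3K56ac, longer members were 9, 21 and 48, and shorter ones 21, 6 and 0.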
